A study of Homo sapiens with 6 samples.

Results

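The 10 genes described here encode structural proteins of the nuclear lamina and inner nuclear membrane and a pair of HMGB chromatin proteins, several of which serve as markers of cellular senescence. They were chosen by name (LMNB1, LMNB2, LMNA, LBR, TMPO, EMD, SUN1, SUN2, HMGB1 and HMGB2), and all 10 were found among the 58299 Ensembl gene IDs of the count table. The tested cells received 100 nM doxorubicin for 48 h (3 libraries), and their controls received 0.1% DMSO for 48 h (3 libraries). Both groups were AC16 cells, a human line made by fusing cells of adult ventricular heart with SV40-transformed fibroblasts, and both were sequenced as unstranded poly(A) RNA. Doxorubicin is an anthracycline that traps type II topoisomerases on DNA. Whether replicates were grown as separate cultures is not stated in the labels; the p-values therefore reflect the variation among these 6 libraries, part of which may be technical.

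The nuclear lamina is a meshwork of intermediate filament proteins under the inner nuclear membrane. A-type lamins come from LMNA and B-type lamins from LMNB1 and LMNB2; membrane proteins such as the lamin B receptor, LAP2 and emerin hold the meshwork and peripheral heterochromatin to the membrane, and SUN proteins connect it to the cytoskeleton. HMGB proteins bend DNA and loosen its packing. A lower level of lamin B1, release of HMGB1 from the nucleus and a lower level of HMGB2 are widely used signs of senescence in cultured human cells.

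Library totals ranged from 17252862 to 18665979 counts in doxorubicin and from 17929419 to 19571731 in DMSO, and each of the 10 genes had at least 893 counts in every library. Doxorubicin replicate 1 lay farther out on the first principal component (72.7) than replicates 2 and 3 (62.8 and 61.4), against -66.3 to -64.5 for the DMSO libraries. Of 10 cardiomyocyte markers, 0 passed the expression filter. Their summed level was 1.06 to 1.99 CPM (counts scaled to a common library size by edgeR's TMM method) in doxorubicin and 0.312 to 0.391 CPM in DMSO. MYH6, MYH7, MYL2, MYBPC3, RYR2 and NKX2-5 were at 0 in every DMSO library. The means of NPPA and TNNT2 went the other way, at counts too low to read a direction. NPPA had 2, 0 and 3 counts in doxorubicin and 5, 6 and 3 in DMSO. TNNT2 had 1, 0 and 2 counts in doxorubicin and 2, 0 and 2 in DMSO. NPPA averaged 0.0938 CPM in doxorubicin and 0.2525 CPM in DMSO, and TNNT2 averaged 0.0563 CPM in doxorubicin and 0.0741 CPM in DMSO. Of 10 fibroblast markers, 10 passed, with a summed level of 14100 to 17910 CPM in doxorubicin and 24610 to 26750 CPM in DMSO. Of these 6 were called lower, 1 (POSTN) was called higher and 3 (FN1, DCN and LUM) were not called. COL1A1 was at 3156 ± 730.3 CPM in doxorubicin and 9864 ± 989.9 CPM in DMSO. FN1 was at 9449 ± 777.5 CPM in doxorubicin and 8741 ± 70.4 CPM in DMSO. The part of this difference in summed level in the results below was not tested. Endothelial markers (4 of 5 tested) summed to 9.43 to 10.8 CPM in doxorubicin and 14.5 to 16.6 CPM in DMSO, a sum made up mostly of TEK, which was called lower (7.12 ± 0.906 CPM in doxorubicin and 14.0 ± 1.39 CPM in DMSO). PECAM1 was called higher (1.06 ± 0.242 CPM in doxorubicin and 0.309 ± 0.0714 CPM in DMSO), the means of VWF, KDR and CDH5 were higher in doxorubicin at under 1 CPM, and the median log2 fold change of the 4 tested was 0.52. Immune markers (2 of 5 tested) summed to 2.85 to 3.47 CPM in doxorubicin and 1.96 to 2.60 CPM in DMSO.

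Transcripts of most of the lamina and of both HMGB genes were lower after doxorubicin, while LMNA was higher. All 10 genes passed the filter on low counts; 8 fell, 7 of them at least 2-fold, 1 (LMNA) rose, and EMD was not called (edgeR's quasi-likelihood test, adjusted p under 0.05 over 15358 tested genes). Doxorubicin changed much of the transcriptome: 32.0% of tested genes were called lower, 6.26% were called lower by at least 2-fold, and 32.7% were called higher. The 3 doxorubicin libraries lay below all DMSO libraries for 8 of the 10 genes, against 34.3% of tested genes, and above them for 1, against 34.8%. The median log2 fold change of the 10 genes was -1.31, beside -0.0013 over all tested genes. In bulk RNA, a smaller number of cells that express a gene and less RNA per cell cannot be told apart.

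**Figure D1:**
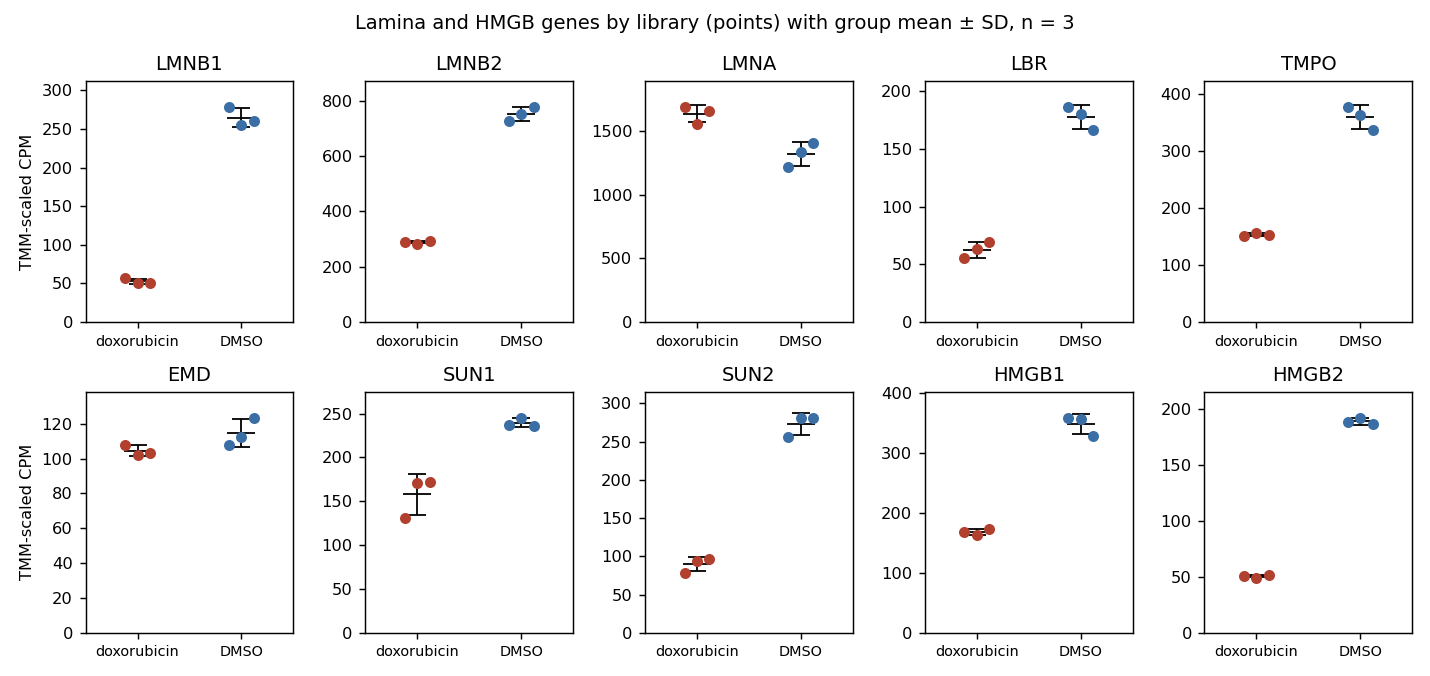
TMM-scaled CPM of each of the 10 genes, with 1 point per library, doxorubicin on the left and DMSO on the right; bars give the mean ± SD (n = 3), and each vertical axis starts at 0. The doxorubicin points lie below all DMSO points for every gene except LMNA, where they lie above, and EMD, where the groups overlap.

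Both B-type lamin genes fell, and LMNB1 had the lowest log2 fold change of the 10 genes. LMNB1 (ENSG00000113368, chr5:126776623-126837020, GRCh38) stood at 56.9, 50.2 and 50.8 CPM in doxorubicin replicates 1 to 3, against 278.6, 255.3 and 259.9 CPM in DMSO replicates 1 to 3. The groups were far apart, with means of 52.6 ± 3.73 CPM in doxorubicin and 264.6 ± 12.4 CPM in DMSO (SD, n = 3). This is a 5.03-fold decrease, or -2.33 ± 0.07 (SE) on the log2 scale (edgeR, adjusted p = 1.4e-13), and 47 of the 15358 tested genes (0.306%) had a lower log2 fold change. LMNB2 (ENSG00000176619, chr19:2427638-2456996) had 288.8, 283.7 and 291.2 CPM in doxorubicin and 724.9, 752.9 and 777.4 CPM in DMSO. Its fall was 2.61-fold (log2 fold change -1.38 ± 0.06 SE, adjusted p = 8.7e-12, edgeR). Exons of TIMM13, on the same strand, cover 4.73% of the LMNB2 exon bases, and TIMM13, which held 10.4% as many counts as LMNB2, fell as well (log2 fold change -1.03).

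The A-type lamin gene moved the other way. LMNA (ENSG00000160789, chr1:156082573-156140089) had 1689, 1557 and 1658 CPM in doxorubicin and 1215, 1338 and 1406 CPM in DMSO. All doxorubicin libraries were above all DMSO libraries, by a modest margin: the log2 fold change was 0.31 ± 0.07 SE, a 1.24-fold increase (adjusted p = 7.8e-04, edgeR), and 66.8% of tested genes had a lower log2 fold change. Lamins A and C are splice products of LMNA, which counts per gene do not separate.

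Scaled to exon length, LMNA held the largest share of the lamin counts in both groups, and a larger share in doxorubicin than in DMSO. Its share of the length-scaled counts of the 3 lamin genes was 77.8%, 77.2% and 77.8% in doxorubicin and 45.3%, 47.8% and 48.4% in DMSO. LMNB1 held 4.80% ± 0.231 of them in doxorubicin and 18.2% ± 1.51 in DMSO, and LMNB2 held 17.6% ± 0.479 in doxorubicin and 34.6% ± 0.174 in DMSO (SD, n = 3). The sum of the 3 genes was 1332 ± 42.5 TPM (a unit scaled to exon length and to the library's sum) in doxorubicin and 1724 ± 36.4 TPM in DMSO. A ratio of genes within a library does not depend on how libraries are scaled. The size of such a ratio, or of a share, does depend on the exon lengths used. These sum all annotated transcripts: 6985 bases for LMNA, 5432 for LMNB2 and 3633 for LMNB1. The fold difference of a ratio between the groups does not depend on them. The LMNA to LMNB1 ratio of length-scaled counts was 15.4, 16.1 and 16.97 in doxorubicin and 2.27, 2.73 and 2.81 in DMSO, a 6.24-fold difference. For LMNA to LMNB2 the ratio was 4.27 to 4.55 in doxorubicin and 1.30 to 1.41 in DMSO, and for LMNB1 to LMNB2 it was 0.261 to 0.295 in doxorubicin and 0.4999 to 0.575 in DMSO. None of these ratios overlapped between the groups. Two-sided exact permutation tests gave p = 0.10 for each of the 5 gene ratios examined, 0.10 after Benjamini-Hochberg adjustment as well, which is the smallest p that 3 against 3 libraries allow.

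**Figure D2:**
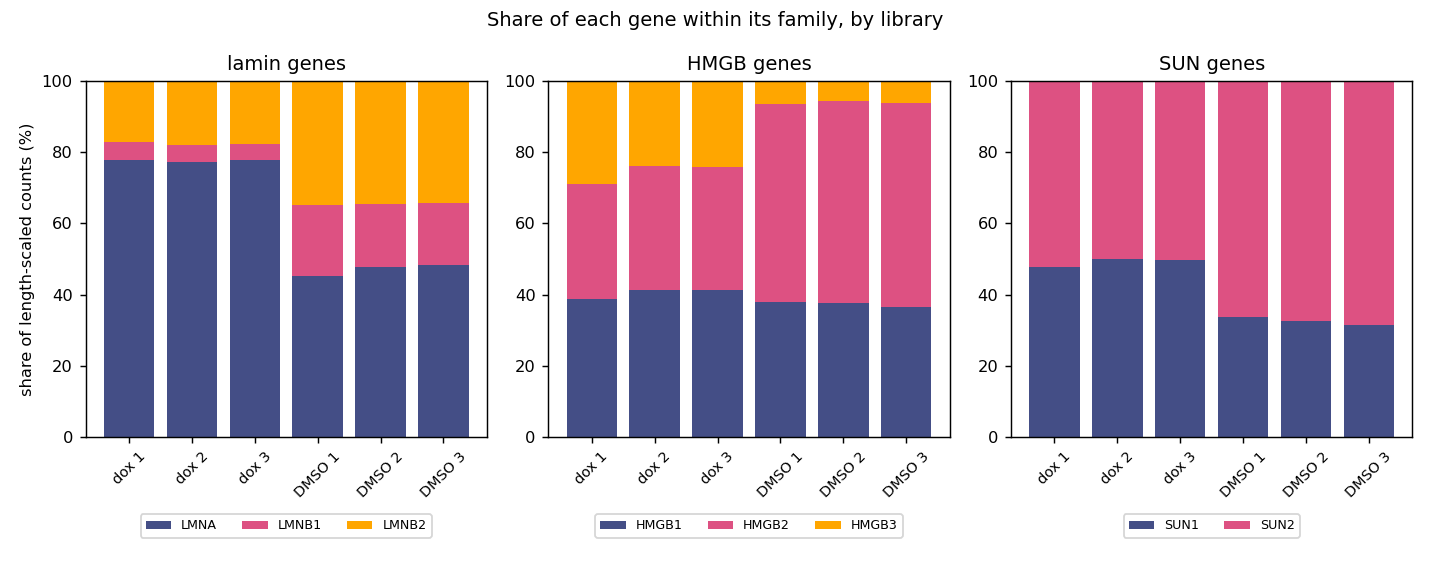
Share (%) of length-scaled counts held by each gene within the lamin, HMGB and SUN genes, 1 bar per library, with the 3 doxorubicin libraries left of the 3 DMSO libraries. LMNA holds 77.2% to 77.8% of the lamin counts in doxorubicin and 45.3% to 48.4% in DMSO. HMGB3 takes a larger part of the HMGB counts in doxorubicin than in DMSO. SUN1 and SUN2 have nearly equal length-scaled counts in doxorubicin. The size of every share depends on the exon lengths used.

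RefSeq promoter windows (GRCh38.p14, 250 bases before to 50 after a start site) were found for 8 of the 10 genes, with 16 windows in all; none was used for SUN1 and HMGB2. The windows were searched on both strands for motifs that are textbook elements of cell cycle promoters: the CHR element TTTGAA, the E2F sites TTTCCCGC, TTTCGCGC, TTTGCCGC and TTTGGCGC, and the CCAAT box, CCAAT. Within a window, no match overlapped another. Windows of the lamins, of TMPO and of HMGB1 are printed because they set genes that fell beside LMNA, which rose; capitals mark the matches, and ATTGG is the CCAAT box read on the other strand.
LMNB1 (second start, chr5:126776886-126777185, plus strand): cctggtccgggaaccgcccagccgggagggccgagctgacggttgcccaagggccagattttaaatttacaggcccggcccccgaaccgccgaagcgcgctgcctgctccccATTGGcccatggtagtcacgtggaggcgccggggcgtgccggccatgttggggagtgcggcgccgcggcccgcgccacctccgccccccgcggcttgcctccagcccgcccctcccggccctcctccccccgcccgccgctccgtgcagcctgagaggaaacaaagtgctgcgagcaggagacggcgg
LMNB2 (chr19:2456910-2457209, minus strand): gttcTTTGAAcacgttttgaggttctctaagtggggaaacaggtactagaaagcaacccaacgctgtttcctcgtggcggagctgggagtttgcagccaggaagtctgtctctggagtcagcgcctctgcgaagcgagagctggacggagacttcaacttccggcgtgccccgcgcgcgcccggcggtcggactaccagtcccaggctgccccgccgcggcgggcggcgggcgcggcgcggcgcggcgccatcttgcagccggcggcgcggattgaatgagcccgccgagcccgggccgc
LMNA (first start, chr1:156082323-156082622, plus strand): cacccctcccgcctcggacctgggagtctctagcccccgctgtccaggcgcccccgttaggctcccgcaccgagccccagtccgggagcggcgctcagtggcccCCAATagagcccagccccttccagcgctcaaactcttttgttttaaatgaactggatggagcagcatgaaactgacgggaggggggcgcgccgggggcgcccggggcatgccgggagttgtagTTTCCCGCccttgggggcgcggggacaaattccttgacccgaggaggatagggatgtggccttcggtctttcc
TMPO (first start, chr12:98515323-98515622, plus strand): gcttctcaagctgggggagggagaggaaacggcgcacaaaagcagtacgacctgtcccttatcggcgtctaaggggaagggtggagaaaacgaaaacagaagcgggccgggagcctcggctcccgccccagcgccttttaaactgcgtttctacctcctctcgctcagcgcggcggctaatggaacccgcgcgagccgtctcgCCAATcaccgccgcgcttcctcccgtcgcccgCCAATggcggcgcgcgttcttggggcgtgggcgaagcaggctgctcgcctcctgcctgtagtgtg
HMGB1 (first start, chr13:30465887-30466186, minus strand): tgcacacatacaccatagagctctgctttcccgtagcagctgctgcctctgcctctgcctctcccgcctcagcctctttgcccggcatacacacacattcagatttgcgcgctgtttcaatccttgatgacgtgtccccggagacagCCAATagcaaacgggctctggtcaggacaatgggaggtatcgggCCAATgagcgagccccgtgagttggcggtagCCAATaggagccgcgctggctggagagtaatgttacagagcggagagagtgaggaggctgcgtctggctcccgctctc

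A CHR match was present in 3 of the 16 windows (18.8%), against 15.2% of all 35116 windows and 10.7% of those of tested genes. The 3 were 1 each of LMNB2, SUN2 and HMGB1, all genes that fell, as did every gene with a window except LMNA and EMD. The other SUN2 and HMGB1 windows held none, and the LMNB2 and HMGB1 matches lay at -246, near the far window edge. An E2F match was present in 1 of the 16 windows (6.25%), that of LMNA, the gene that rose, against 3.31% of all windows and 4.79% of those of tested genes. CCAAT boxes were present in 8 of the 16 windows (50%), of LMNB1, LMNA, TMPO, EMD, SUN2 and HMGB1. They were present in 34.6% of all windows and 34.3% of those of tested genes. The printed HMGB1 window held 3, and the EMD window, the first SUN2 window and each TMPO window held 2. The TMPO windows (chr12:98515323-98515622 and chr12:98515340-98515639) overlap and hold the same boxes, so 1 promoter counts as 2 of the 8. The windows with 0 matches were that of LBR, the first of LMNB1, all but the first of LMNA and of SUN2, and the last of HMGB1. A match is a run of letters and not a measured binding site, and a link of motif to direction of change was not tested.

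Among the inner nuclear membrane proteins, LBR and TMPO fell and EMD was not called. LBR (ENSG00000143815, chr1:225401502-225428925), which encodes the lamin B receptor that ties B-type lamins and heterochromatin to the membrane, had 55.6, 62.95 and 69.1 CPM in doxorubicin and 186.6, 180.0 and 166.8 CPM in DMSO. The highest doxorubicin library was well below the lowest DMSO library, and the log2 fold change was -1.51 ± 0.08 SE, a 2.84-fold decrease (adjusted p = 8.3e-11, edgeR). TMPO (ENSG00000120802, chr12:98515512-98550379) encodes the LAP2 proteins, which bind lamins and the chromatin protein BAF. Its level was 151.3, 155.8 and 153.8 CPM in doxorubicin and 377.9, 363.8 and 337.2 CPM in DMSO. That is a 2.34-fold decrease (log2 fold change -1.23 ± 0.06 SE, adjusted p = 6.6e-11, edgeR). The antisense gene TMPO-AS1 shares 8.30% of the TMPO exon bases and held 2.35% as many counts; it was lower too, with 3.90 ± 0.400 CPM in doxorubicin and 8.16 ± 1.13 CPM in DMSO, and without strand its reads cannot be told from those of TMPO.

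EMD (ENSG00000102119, chrX:154379197-154381523), which encodes emerin, a LEM-domain partner of lamin A, had 108.0, 102.2 and 103.0 CPM in doxorubicin and 107.6, 112.4 and 123.5 CPM in DMSO. Doxorubicin replicate 1 lay above DMSO replicate 1, so the groups overlapped. Its log2 fold change was -0.13 ± 0.07 SE (adjusted p = 0.089, edgeR). Without DMSO replicate 1 it was -0.18 and was called (adjusted p = 0.034); over all 14 alternatives the adjusted p ranged from 0.034 to 0.32.

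Both SUN genes fell, SUN2 more than SUN1. SUN proteins span the inner nuclear membrane and bind nesprins in the space between the membranes. SUN2 (ENSG00000100242, chr22:38734725-38794143) had 78.8, 94.0 and 95.9 CPM in doxorubicin and 255.9, 280.6 and 281.4 CPM in DMSO. Replicate 1 was the lowest of each group, and the groups were far apart (log2 fold change -1.61 ± 0.08 SE, a 3.04-fold decrease, adjusted p = 3.3e-11, edgeR). Exons of other genes cover 24.6% of the SUN2 exon bases, the largest overlap being with opposite-strand GTPBP1 (10.5%), which held 57.9% as many counts and rose to 122.1 ± 10.6 CPM in doxorubicin, against 88.8 ± 3.10 CPM in DMSO. DNAL4, on the same strand, shares 1.17% of the bases and rose too, to 22.3 ± 1.16 CPM in doxorubicin, against 14.5 ± 1.47 CPM in DMSO.

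SUN1 (ENSG00000164828, chr7:816615-896435) had 130.7, 171.3 and 171.9 CPM in doxorubicin and 237.5, 245.5 and 235.8 CPM in DMSO. Doxorubicin replicate 1 stood below the other two, which agreed closely. It fell 1.52-fold, with a log2 fold change of -0.60 ± 0.09 SE (edgeR, adjusted p = 5.5e-05), which was -0.48 without doxorubicin replicate 1. GET4, on the same strand, covers 15.6% of the SUN1 exon bases, with 5.45% as many counts, and was not called (adjusted p = 0.52, edgeR). Per exon length the SUN1 to SUN2 ratio was 0.912, 1.00 and 0.985 in doxorubicin and 0.510, 0.481 and 0.460 in DMSO. SUN1 therefore made up 49.1% ± 1.24 of the length-scaled SUN counts in doxorubicin and 32.6% ± 1.13 in DMSO (SD, n = 3). The sum of both genes was 120.1 ± 14.9 TPM in doxorubicin and 268.4 ± 6.16 TPM in DMSO. The near-equality in doxorubicin rests on the exon lengths used, 11811 bases for SUN1 and 6489 for SUN2. Without length scaling, mean levels in doxorubicin were 158.0 CPM for SUN1 and 89.6 CPM for SUN2. In DMSO they were 239.6 CPM for SUN1 and 272.7 CPM for SUN2.

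HMGB2 fell more than HMGB1. HMGB2 (ENSG00000164104, chr4:173331695-173335125), the HMGB gene most tied to proliferating cells, had 50.7, 49.3 and 51.8 CPM in doxorubicin and 188.0, 192.2 and 186.5 CPM in DMSO. The libraries of each group lay within a few percent of each other, and the log2 fold change was -1.90 ± 0.06 SE, a 3.73-fold decrease (adjusted p = 2.8e-13, edgeR), with 0.833% of tested genes lower. HMGB1 (ENSG00000189403, chr13:30456704-30617597), which acts on chromatin inside the nucleus and as an alarm signal outside the cell, had 168.0, 163.2 and 172.8 CPM in doxorubicin and 358.6, 355.9 and 328.4 CPM in DMSO. It fell 2.07-fold (log2 fold change -1.05 ± 0.06 SE, adjusted p = 3.8e-10, edgeR). The ratio of HMGB1 to HMGB2 per exon length was 1.19, 1.19 and 1.20 in doxorubicin and 0.685, 0.666 and 0.633 in DMSO, without overlap. Counts of RNA say nothing of where the HMGB1 protein was.

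HMGB1 has many processed copies in the genome, and reads can be split between them. The table lists 48 HMGB1 pseudogenes, 28 of them at 0 in all libraries; together they held 13.6% as many counts as HMGB1. HMGB1P6 held 8.58% as many in doxorubicin and 9.40% in DMSO, and HMGB1P5 held 3.10% in doxorubicin and 3.38% in DMSO. Both were lower after doxorubicin, with log2 fold changes of -1.18 and -1.18 (edgeR, adjusted p = 2.3e-08 for HMGB1P6 and 6.6e-07 for HMGB1P5). With their counts added, the log2 fold change of HMGB1 was -1.06. The single HMGB2 pseudogene held 0.0379% as many counts as HMGB2.

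The third HMGB gene and the other HMG genes were set beside them. HMGB3, an X-linked HMGB gene, had 64.3, 48.7 and 51.5 CPM in doxorubicin and 31.6, 27.9 and 28.4 CPM in DMSO. It was the only one of 8 further HMG genes that rose (log2 fold change 0.90, adjusted p = 1.2e-06, edgeR), and replicate 1 was the highest library in each group. Its share of the length-scaled counts of HMGB1, HMGB2 and HMGB3 was 25.6% ± 2.77 in doxorubicin and 6.13% ± 0.388 in DMSO, while HMGB2 held 33.9% ± 1.23 in doxorubicin and 56.5% ± 1.02 in DMSO and HMGB1 held 40.5% ± 1.54 in doxorubicin and 37.4% ± 0.866 in DMSO (SD, n = 3). The sum of the 3 genes was 237.7 ± 10.5 TPM in doxorubicin and 519.3 ± 21.7 TPM in DMSO. The 29 HMGB3 pseudogenes together held 1.24% as many counts as HMGB3 in doxorubicin and 0.619% in DMSO.

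All 5 nucleosome-binding HMGN genes fell, beside 32.0% of all tested genes. HMGN2 was at 330.6 ± 10.8 CPM in doxorubicin and 876.9 ± 24.8 CPM in DMSO, and HMGN3 at 7.81 ± 0.395 CPM in doxorubicin and 20.9 ± 2.77 CPM in DMSO (log2 fold changes -1.41 and -1.42). HMGN5, HMGN4 and HMGN1 fell by 0.68, 0.47 and 0.40 on the log2 scale. HMGA1 and HMGA2, which encode proteins of senescence-associated heterochromatin foci, were not called: HMGA1 had 871.5 ± 81.6 CPM in doxorubicin and 972.6 ± 182.4 CPM in DMSO, and HMGA2 had 120.4 ± 9.50 CPM in doxorubicin and 113.2 ± 14.8 CPM in DMSO (adjusted p = 0.35 and 0.41, edgeR). The median log2 fold change of the 8 genes was -0.44.

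**Figure D3:**
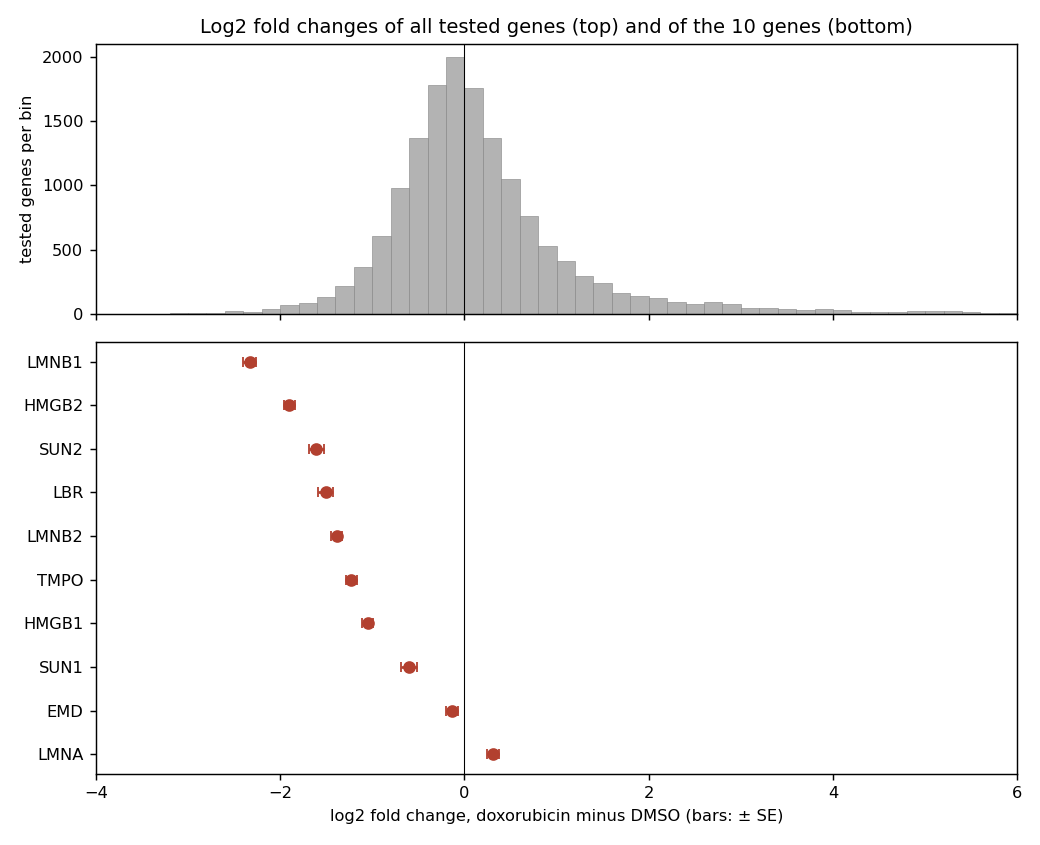
Top, number of tested genes per bin of 0.2 in log2 fold change (doxorubicin minus DMSO; 114 genes lie outside the axis, which runs from -4 to 6); bottom, the log2 fold change of each of the 10 genes, with bars of ± 1 SE. LMNB1 lies in the far left tail at -2.33, EMD close to 0 and LMNA right of it at 0.31.

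Partners of the lamina in the nuclear envelope did not share one direction. Of 18 listed, 17 were tested. Of these 6 fell, 3 rose and 8 were not called, with a median log2 fold change of 0.0091. Over all tested genes 32.0% were called lower and 32.7% higher, with a median of -0.0013, so the share that fell was near that of any gene. Those that fell most were NRM (nurim), TOR1AIP1 (the lamin-binding protein LAP1) and BANF1 (the chromatin protein BAF, bound by LAP2 and emerin). NRM was at 21.4 ± 2.10 CPM in doxorubicin and 56.1 ± 1.95 CPM in DMSO, a 2.62-fold decrease. TOR1AIP1 was at 58.3 ± 1.18 CPM in doxorubicin and 110.6 ± 4.65 CPM in DMSO, and BANF1 at 115.9 ± 0.769 CPM in doxorubicin and 205.9 ± 10.2 CPM in DMSO. The 3 that rose were PRR14, which tethers HP1-marked chromatin to the lamina, and the nesprin genes SYNE1 and SYNE3, whose products bind SUN proteins. SYNE1 was at 45.6 ± 1.97 CPM in doxorubicin and 29.8 ± 1.58 CPM in DMSO, and SYNE3 at 26.5 ± 0.755 CPM in doxorubicin and 19.5 ± 0.906 CPM in DMSO. PRR14 was at 64.6 ± 5.99 CPM in doxorubicin and 39.5 ± 1.26 CPM in DMSO.

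Of the 5 genes for enzymes that farnesylate, trim and methylate lamin precursors, 3 fell and 1 rose. Of all tested genes, 32.0% were called lower and 32.7% higher. ICMT, the carboxyl methyltransferase, had 191.2 ± 2.04 CPM in doxorubicin and 285.4 ± 7.90 CPM in DMSO. ZMPSTE24, the protease that matures prelamin A, had 82.2 ± 7.04 CPM in doxorubicin and 112.1 ± 2.97 CPM in DMSO. RCE1, another protease of the pathway, had a log2 fold change of -0.30 (adjusted p = 0.0058, edgeR). FNTA, the alpha subunit of farnesyltransferase, rose to 66.3 ± 6.22 CPM in doxorubicin, against 45.45 ± 0.539 CPM in DMSO, and FNTB was not called. All 8 heterochromatin factor genes fell, each by less than 2-fold (median -0.56 on the log2 scale). Among them CBX1, which encodes an HP1 protein, was at 128.1 ± 10.4 CPM in doxorubicin and 242.8 ± 8.41 CPM in DMSO. CBX3, another HP1 gene, was at 126.8 ± 0.508 CPM in doxorubicin and 228.6 ± 7.06 CPM in DMSO, and SUV39H1, a histone H3 lysine methyltransferase, had a log2 fold change of -0.71.

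Receptors for extracellular HMGB1 were low in both groups. Of 4 listed, TLR2 and CXCR4 did not pass the filter. TLR4 rose, with 15.1, 14.9 and 17.6 CPM in doxorubicin and 4.25, 5.83 and 7.07 CPM in DMSO (log2 fold change 1.47, adjusted p = 4.7e-07, edgeR), and AGER fell to 4.19 ± 0.579 CPM in doxorubicin, against 6.64 ± 0.692 CPM in DMSO.

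**Figure D4:**
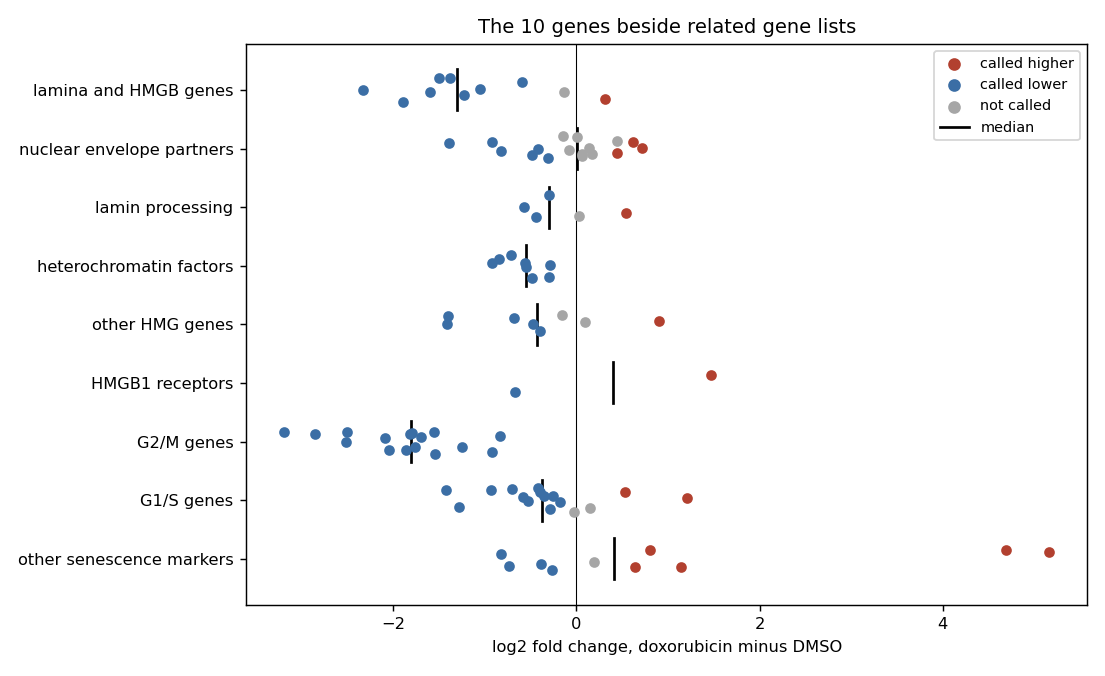
Log2 fold change (doxorubicin minus DMSO) of every tested gene, 1 point per gene, for the 10 genes and for 8 related lists; black lines are medians and colours give the edgeR call. The 10 genes centre at -1.31, between the G2/M list at -1.81 and the G1/S list at -0.38, and the nuclear envelope partners centre at 0.0091.

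Most of the listed proliferation genes were also lower after doxorubicin. All 16 genes of G2 and mitosis fell (14 by 2-fold or more; median -1.81 on the log2 scale), and their summed level was 1127 to 1381 CPM in doxorubicin and 4330 to 4484 CPM in DMSO. Of 16 genes of G1 and S phase, 12 fell, PCNA and TYMS rose and 2 (CDC6 and CCNE1) were not called. Their median was -0.38, with summed levels of 3153 to 3522 CPM in doxorubicin and 3503 to 3711 CPM in DMSO. Of all tested genes, 32.0% were called lower, 6.26% lower by at least 2-fold, and 32.7% higher. The mitotic kinase gene PLK1 was at 36.1 ± 8.76 CPM in doxorubicin and 330.5 ± 9.17 CPM in DMSO, CCNB1 (cyclin B1) at 48.7 ± 11.4 CPM in doxorubicin and 351.7 ± 10.6 CPM in DMSO, and CENPA at 7.32 ± 0.655 CPM in doxorubicin and 41.9 ± 2.36 CPM in DMSO. The part of fewer cycling cells in the lower LMNB1, HMGB2 and TMPO counts was not tested.

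Other senescence markers did not all move the way their use as markers implies. Of 10, 5 rose and 4 fell, beside 32.7% of all tested genes called higher and 32.0% called lower. CDKN1A, which encodes p21, had 6450, 5811 and 6038 CPM in doxorubicin and 166.2, 182.5 and 161.5 CPM in DMSO, and FUCA1, a lysosomal fucosidase, had 62.5 ± 9.83 CPM in doxorubicin and 2.41 ± 0.621 CPM in DMSO. TNFRSF10D and CDKN2B were also among those that rose. CDKN2A, which encodes p16 and ARF, was lower, at 242.6, 235.7 and 262.2 CPM in doxorubicin and 397.1, 400.8 and 433.3 CPM in DMSO (log2 fold change -0.73, adjusted p = 4.9e-08, edgeR). GLB1, the gene of the lysosomal beta-galactosidase that is stained in senescent cells, had 51.8, 55.8 and 58.4 CPM in doxorubicin and 69.2, 69.7 and 60.7 CPM in DMSO (log2 fold change -0.27, adjusted p = 0.0058, edgeR). PTPRJ fell as well, and PLAUR was not called. DPP4 had 7.84, 9.76 and 8.45 CPM in doxorubicin and 14.7, 9.53 and 9.996 CPM in DMSO, with overlapping groups (log2 fold change -0.39, edgeR, adjusted p = 0.048). Its call was lost in 8 of 14 alternatives, and the adjusted p over all 14 ranged from 0.008 to 0.32. The log2 fold change was -0.17 without DMSO replicate 1, and the call was also lost without doxorubicin replicate 1 and without doxorubicin replicate 3.

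The genes whose libraries behaved most like LMNB1 were sought by distance between centred log2 CPM values over the 6 libraries, among 11194 genes whose mean log2 CPM reached 2. The 4 nearest were ANP32E (distance 0.235), RIPOR2 (0.320), CENPA (0.369) and CCBE1 (0.377). For HMGB2 they were DEPDC1B (0.158), KIFC1 (0.178), H2AX (0.190) and NLGN1 (0.198). ANP32E, a histone chaperone of H2A.Z, had 44.2 CPM in doxorubicin and 230.3 CPM in DMSO on average, close to LMNB1 itself. Of the other 9 genes, HMGB2 came nearest to LMNB1, at 0.557, and SUN2 came nearest to HMGB2, at 0.434. LMNA was farthest from both, at 3.24 and 2.71. With 2 groups of 3 these distances mostly follow the size of the treatment difference.

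The order of levels differed between the groups. Per exon length, LMNA was the highest of the 10 genes in both groups, at 1034 ± 37.2 TPM in doxorubicin and 813.5 ± 44.3 TPM in DMSO. LMNB1 ranked 7th in doxorubicin, at 64.0 ± 4.78 TPM, and 3rd in DMSO, at 314.1 ± 20.5 TPM. EMD ranked 3rd in doxorubicin, at 228.3 ± 7.98 TPM, where its range overlapped that of LMNB2 (234.2 ± 1.48 TPM), and 5th in DMSO, at 244.1 ± 13.2 TPM. In doxorubicin LMNB1, SUN2, SUN1 and LBR followed each other between 46.9 and 69.5 TPM with ranges that overlapped from one to the next, as did HMGB2 and TMPO. In DMSO the neighbours with overlapping ranges were HMGB1, SUN2 and TMPO, between 166.3 and 204.5 TPM. Lengths are the summed exons of all annotated transcripts, so a gene with long rare exons, such as HMGB1 with 7723 bases, reads lower in TPM than its main transcript would.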

How the data were processed

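The authors deposited raw counts per gene, in 1 column per library, in the featureCounts layout per the file headers. Tools listed in the submitters' processing notes are STAR, SAMtools, Subread and featureCounts, with build hg38 (GRCh38). Aligner settings, handling of multimapping or overlapping reads, and versions are not given in the sources used here. Exon length, in bases per the file headers, is a deposited column and was used to compute TPM. Symbols matched 57717 of 58299 IDs; gene types came from GENCODE release 29. Rows naming no gene and columns of other samples numbered 0. Start and end of all 10 genes equalled those of that release.

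Counts were fitted with edgeR 4.0.16 (R 4.3.3): filterByExpr defaults (minimum count 10, minimum total 15), TMM, robust quasi-likelihood F test, doxorubicin minus DMSO, two-sided, no covariates, Benjamini-Hochberg over 15358 genes. SE is the log2 fold change over the square root of F. Replicates of a group differed by more than sampling noise (chi-square per degree of freedom 2.82 to 9.39). The fit was tested on simulated data with 200 genes chosen to change. It recovered 27 of 46 tested changes of 1.5-fold, 44 of 49 of 2-fold and 49 of 49 of 4-fold. Of 14890 unchanged genes, 5 were called. The simulation changed far fewer genes than were called here and gave all genes the same dispersion, so it does not test the fit under such broad change. Ratios of length-scaled counts were tested by exact permutation (scipy 1.17.1). The members and lists were chosen with earlier results of these data known. Beyond the 10 genes, the rule names at most 3 called genes per list by absolute change, all in a direction with 5 or fewer, genes overlapping or copying a member (1% of its counts or 10% of its exon bases), and the 4 nearest genes. A listed gene that this rule names is not reported here. Promoter windows are RefSeq's. Alternatives were other scalings and filters, DESeq2 1.42.0, the replicate number as a block, the 50 most abundant genes left out, and each library left out.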

Additional observations from a re-analysis of the deposited data

How the results depend on the processing

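All 8 genes that fell, and LMNA, kept their direction and their call in every alternative that gave a value, including the sets without each library; LMNB1 ranged from -2.39 to -2.29, HMGB2 from -1.93 to -1.86 and LMNA from 0.25 to 0.35 on the log2 scale. EMD ranged from -0.1833 (without DMSO replicate 1, where it was called) to -0.0811 (without DMSO replicate 3) when each library was left out. LMNA and CDKN1A are among the 50 most abundant genes; with those 50 left out, and so given no value, 0 of the 10 genes rose and 3 other senescence markers rose. With no filter, and with DESeq2, 3 HMGB1 receptor genes rose, since TLR2 and CXCR4 were then tested. The median of all tested genes was 0.3746 with no filter (34828 genes tested) and 0.4044 with DESeq2 (23352 genes), where more genes of low count were tested, and -0.0080 to 0.0396 in the other alternatives. Other senescence markers called lower numbered 3 to 4, DPP4 being the one lost. Those called higher numbered 4 to 6, apart from the alternative without the 50 most abundant genes. Genes of G1 and S phase called lower numbered 11 to 12. The replicate numbers are not stated to pair the samples, and deviations of same-numbered libraries correlated at 0.0515, -0.0231 and 0.027; with the replicate block 8 of the 10 genes fell and 1 rose, with LMNB1 at -2.33. Of 455 values recomputed, 450 stayed on the same side of the threshold, within 1.5 times the count or, for a ratio, within the larger group SD. The ratio differences without length scaling are among these and could not change, since length cancels. Adding pseudogene counts to HMGB1 was chosen after seeing the data. Reads shared with overlapping genes could not be reassigned from counts, which bears on SUN2, SUN1, TMPO and LMNB2, and splice forms of LMNA and TMPO are not resolved.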
